A study of Mus musculus with 10 samples.

Results

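Mouse embryonic stem cells that were being turned into neuromesodermal progenitors carried, on day 2, a set of 50 genes whose RNA was at least 4 times as abundant as at any later stage sampled. They were picked from the 52459 genes of the deposited count table by their own levels. Counts were expressed as CPM (each count divided by its library's total and scaled so that every library adds to 1000000), the mean of the 2 day 2 libraries had to reach 3 CPM, and that mean had to be at least 4 times the mean of each of the 4 later groups. Unnamed gene models (names made of Gm and digits, or ending in Rik) were set aside, which took the number from 53 to 50. The fall after day 2 is therefore how the genes were chosen and is given here as a description with no test.

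All 10 libraries came from 1 wild-type C57BL/6 embryonic stem cell line, ES-Bruce4, grown with LIF and serum on mitotically inactive embryo fibroblasts, from which the cells were separated once before plating. They were then grown in N2B27 medium with bFgf at 10 ng/ml, and the B27 supplement was with or without vitamin A, which the labels do not resolve by sample. The 5 groups of 2 libraries were D2 (day 2, given as ES-derived epiblast stem cells), D3 (day 3, after the Wnt agonist CHIR99021 had been added on day 2 at 5 µM), D6 (day 6), D7 (day 7) and D7G (day 7 after 24 h with the ligand Gdf11 at 50 ng/ml). D3 to D7G are labelled neuromesodermal progenitors, and cells were split on D3. The labels do not say that the 2 libraries of a group were separate cultures. Each p-value here therefore weighs a difference only against how far libraries of the same group lay apart, pooled over the 5 groups and moderated across genes. That distance could be technical.

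In the mouse embryo the epiblast leaves naive pluripotency around implantation, and the primed or formative cells that follow switch on the de novo DNA methyltransferases, the growth factor gene Fgf5 and the transcription factor genes Otx2 and Pou3f1 while keeping Pou5f1 and Sox2. Fgf and Nodal signals hold that state. Wnt signalling then moves cells towards the caudal epiblast, whose neuromesodermal progenitors express T (Brachyury), Cdx2 and Nkx1-2 beside Sox2 and give rise to both spinal cord and paraxial mesoderm, and Gdf11 acts there at the change from trunk to tail.

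The markers of the labelled stages were present in the groups that should carry them. T stood at 0.899 CPM on D2 and 239 CPM on D3, Cdx2 at 0.578 and 159 CPM, and Nkx1-2 at 3.37 and 243 CPM. Each was lower again in the later groups with that label. On D6, D7 and D7G, T was at 40.9, 19.8 and 29.4 CPM, Cdx2 at 109, 42.0 and 25.1, and Nkx1-2 at 114, 40.0 and 24.9. Sox2 lay between 159 CPM (D2) and 233 CPM (D7) in the 5 group means. Pou5f1 was highest on D2, at 553 CPM, and was still at 264 CPM on D3 and at 128 to 161 CPM in the D6, D7 and D7G means. Library totals ran from 31078950 to 33418015 counts.

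Together the 50 genes took 4012 CPM on D2, 518 CPM on D3 and 293, 294 and 309 CPM on D6, D7 and D7G. A single gene, Dnmt3b, made up 35.9% of the D2 sum. Levels on D2 spanned 3.10 to 1442 CPM with a median of 10.1 CPM; 8 genes were at 100 CPM or more and 15 under 5 CPM. The median gene kept 15.5% of its D2 level on D3, with a range of 1.88% to 24.7%. The medians left on D6, D7 and D7G were 5.80%, 7.32% and 8.06%. In bulk RNA, fewer cells carrying a transcript and less transcript per cell cannot be told apart.

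**Figure D1:**
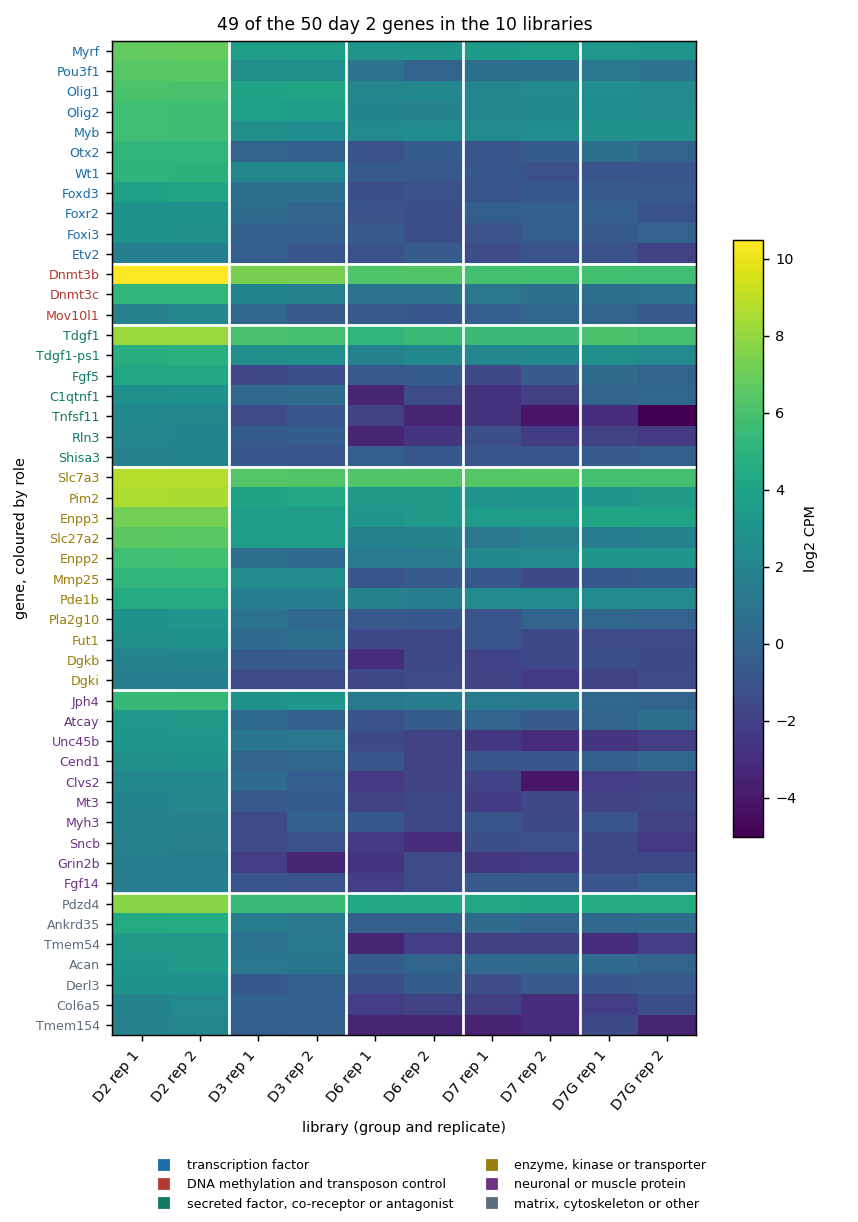
Heat map of log2 CPM for 49 of the 50 day 2 genes (rows, names coloured by role) in the 10 libraries (columns, group and replicate). In every row the 2 D2 libraries are the highest, and the summed level of the set goes from 4012 CPM on D2 to 518 CPM on D3.

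For each of the 50 genes both D2 libraries lay above every later library, and no gene had a count of 0 in any library. The 2 D2 libraries differed by a median of 3.76% of their mean, and by at most 24.0%, for Col6a5. The group that came closest to D2 was D3 for 36 genes, D7G for 10 and D7 for 4. For 29 genes both D3 libraries lay above every D6, D7 and D7G library, and for 1 gene, Enpp2, both lay below all of them. The same count over all genes is not given here, so these numbers only describe the set. By D6, 32 genes had a mean under 1 CPM, against 18 on D3, and 16 were under 1 CPM in every later group.

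**Figure D2:**
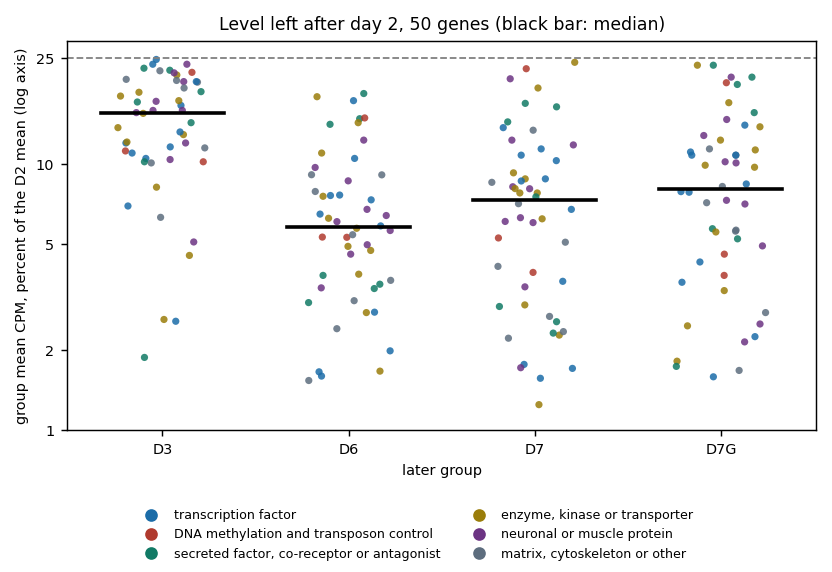
Group mean of each of the 50 genes as a percentage of its D2 mean (log axis) in the 4 later groups, coloured by role, with the median as a black bar and the 25% limit of the selection dashed. The median goes from 15.5% on D3 to 5.80% on D6 and is 8.06% in D7G.

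The D2 level, measured per kilobase of exon so that genes can be compared, was led by Dnmt3b at 282 CPM per kb. Pim2 followed at 136, Slc7a3 at 114 and Tdgf1 at 107 CPM per kb. The limit for the highest 5% of genes with a D2 mean above 0 was 43.9 CPM per kb. Start-site sequence is shown for Dnmt3b, Pim2 and Fgf5, the methyltransferase, kinase and growth factor to which the results return. Each line gives bases before the RefSeq transcription start (mouse build GRCm38.p6, 5′ to 3′, plus strand), with GC boxes (GGGCGG or its complement CCGCCC) and octamer cores (ATGCAAA or TTTGCAT, the letters read by POU factors such as those encoded by Pou5f1 and Pou3f1) in capitals. The Dnmt3b window is chr2:153649199-153649448, the Fgf5 window chr5:98253934-98254183 and the Pim2 stretch chrX:7878056-7878261, whose last 44 bases before the RefSeq start are left out because the deposited gene model counts them as exon.
Dnmt3b: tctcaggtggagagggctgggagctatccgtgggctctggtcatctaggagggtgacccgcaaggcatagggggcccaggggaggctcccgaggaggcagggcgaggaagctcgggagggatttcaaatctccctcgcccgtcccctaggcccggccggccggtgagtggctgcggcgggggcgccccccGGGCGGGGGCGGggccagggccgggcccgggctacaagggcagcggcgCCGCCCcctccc
Fgf5: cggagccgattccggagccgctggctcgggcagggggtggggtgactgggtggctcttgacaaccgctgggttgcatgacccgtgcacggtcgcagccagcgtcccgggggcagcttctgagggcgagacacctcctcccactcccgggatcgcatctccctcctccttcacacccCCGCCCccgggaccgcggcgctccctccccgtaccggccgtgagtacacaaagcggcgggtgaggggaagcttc
Pim2: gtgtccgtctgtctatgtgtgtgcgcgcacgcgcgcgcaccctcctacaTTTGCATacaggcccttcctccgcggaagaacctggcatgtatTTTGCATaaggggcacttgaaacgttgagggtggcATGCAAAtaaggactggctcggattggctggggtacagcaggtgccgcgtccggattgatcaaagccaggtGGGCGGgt

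The Pim2 line holds 3 octamer cores, and it was singled out after the motif counts were seen. A window with 3 or more of them occurred 7 times among 32851 windows of all genes and 3 times among 11724 windows of genes at 3 CPM or more on D2. Start-site windows were available for 38 of the 50 genes (44 windows). An octamer core was present in 4.55% of these windows, 4.12% of all windows and 3.11% of the windows of genes at 3 CPM or more on D2. An Otx-type homeodomain site (TAATCC, either strand) was in 6.82%, 6.25% and 4.89%, an E-box (CACGTG) in 9.09%, 6.02% and 8.48%, and a TATA box (TATAAA, either strand) in 13.6%, 12.4% and 6.01%. GC boxes were in 56.8%, 32.7% and 59.8%. None of the 5 motifs overlaps another in its letters, and a match is only a run of letters, not a measured binding site. The median observed-to-expected CpG ratio was 0.55 for the day 2 genes, 0.37 for all windows and 0.73 for genes at 3 CPM or more on D2, and windows at 0.6 or more made up 45.5%, 34% and 67.6%.

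Genes for DNA methylation and transposon control came first by level. Dnmt3b, which places new CpG methylation (chr 2, 153649450 to 153687730, plus strand, mm10), was at 1447 and 1436 CPM in the 2 D2 libraries, 161 and 161 on D3, 73.7 and 79.4 on D6, 57.2 and 55.8 on D7 and 56.9 and 53.2 in D7G. The groups formed a staircase down to D7, and the D7 and D7G ranges overlapped. Dnmt3c, a rodent gene for a methyltransferase that acts on young retrotransposons in male germ cells, lies 8921 nt from Dnmt3b on the same strand and stood at 36.2 ± 0.129 CPM on D2 and 3.69 ± 0.302 on D3 (SD, n = 2). Its transcript is 93.3% identical to Dnmt3b over 1652 aligned nt, with an identical run of 287 nt, and its count was 2.16% to 3.82% of that of Dnmt3b in the 10 libraries. How the counting shared reads between the pair is not given in the sources used here, so the Dnmt3c level is uncertain. In a second deposited count table Dnmt3c was at 41.3 CPM on D2 and 3.58 CPM on D3. Mov10l1, a helicase of the germ-line piRNA pathway, was far lower, at 3.62 and 4.44 CPM on D2 against 1.11 and 0.669 on D3.

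The 11 transcription factor genes summed to 478 CPM on D2, and the median one kept 12.0% on D3. Otx2, a homeodomain factor of the epiblast and later of the forebrain (chr 14, 48657679 to 48667644, minus strand), had the largest ratio of D2 to its highest later group among the 50 genes, 27.8. Its libraries read 34.8 and 35.8 CPM on D2, 0.951 and 0.860 on D3, 0.470 and 0.700 on D6, 0.509 and 0.697 on D7 and 1.61 and 0.934 in D7G. The later libraries all lay under 2 CPM. Pou3f1, the POU factor also called Oct6, went from 89.4 and 94.2 CPM on D2 to 6.18 and 6.59 on D3 and lay between 0.955 and 2.30 CPM in the 6 libraries after D3. Foxd3, a forkhead factor of pluripotent and neural crest cells, was at 14.5 and 16.2 CPM on D2 and 1.65 and 1.56 on D3.

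Other factors in the set are better known from lineages outside the epiblast. Myrf, a membrane-bound regulator of myelin genes, was the most abundant factor by CPM, at 113 ± 2.01 on D2 and 12.4 ± 0.0714 on D3 (SD, n = 2). The neighbouring genes Olig1 and Olig2, basic helix-loop-helix factors of oligodendrocytes and motor neurons, are 41094 nt apart on chr 16. Olig2 was at 54.4 and 50.5 CPM on D2, 13.2 and 12.7 on D3, 4.01 and 3.69 on D6, 4.43 and 4.64 on D7 and 5.68 and 5.64 in D7G. Olig1 ran beside it, from 69.9 and 67.3 CPM on D2 to 15.9 and 16.6 on D3 and 4.20 to 5.96 in the 6 later libraries, and both sit close to the 4-fold limit with ratios of 4.04 and 4.22. Myb, a factor of blood progenitors, was at 53.1 and 51.2 CPM on D2 and between 5.17 and 7.50 CPM in the 8 later libraries. Wt1, a zinc finger factor of kidney and gonad, was at 34.0 and 31.0 CPM on D2, 4.28 and 4.30 on D3 and between 0.455 and 0.658 afterwards. Foxr2, Foxi3 and Etv2 were low, with D2 means of 7.27, 7.03 and 3.19 CPM.

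Secreted factors, co-receptors and antagonists numbered 7. Tdgf1 (Cripto), the co-receptor for Nodal (chr 9, 110939603 to 110946158, minus strand), was at 288 and 272 CPM on D2, 66.1 and 60.0 on D3, 35.8 and 42.8 on D6, 47.0 and 47.5 on D7 and 69.7 and 61.8 in D7G. Its lowest group was D6, and the D7G libraries overlapped those of D3. Fgf5 (chr 5, 98254184 to 98277030, plus strand), whose upstream bases are printed above, was at 19.3 and 19.7 CPM on D2 and 0.317 and 0.414 on D3, which is 1.88% of the D2 mean and the smallest share left on D3 among the 50 genes. It read 0.627 and 0.700 CPM on D6, 0.329 and 0.667 on D7 and 1.26 and 0.965 in D7G. C1qtnf1, a secreted protein of the C1q and tumour necrosis factor related family, was at 6.66 and 6.79 CPM on D2, 1.11 and 1.40 on D3, 0.0940 and 0.382 on D6, 0.150 and 0.243 on D7 and 1.01 and 1.09 in D7G. The other members were Tnfsf11 (RANKL, the osteoclast ligand), Rln3 (a neuropeptide) and Shisa3 (an antagonist of Wnt and Fgf receptors), with D2 means of 4.53, 4.19 and 3.77 CPM.

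The seventh entry of that group, Tdgf1-ps1, is a processed pseudogene of Tdgf1 on chr 16 and is not an independent measurement. It matched the Tdgf1 transcript at 506 of 512 aligned bases (98.8%), with identical runs of up to 154 nt, and its count was 8.51% to 11.0% of that of Tdgf1 in every library. Counting from base 1 of the Tdgf1 transcript, the 6 differences (Tdgf1 base first) are C365T, T465C, T596C, G751A, C758T and C779T, all in the coding part. The stretch from position 695 to 784 is shown because it carries 3 of them, in capitals, close together.
Tdgf1: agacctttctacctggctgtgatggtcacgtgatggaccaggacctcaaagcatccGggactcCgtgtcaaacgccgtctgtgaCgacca
Tdgf1-ps1: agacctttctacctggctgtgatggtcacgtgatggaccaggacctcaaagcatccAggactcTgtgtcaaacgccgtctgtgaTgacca
In the second deposited count table Tdgf1-ps1 was at 0.269 CPM on D2 and Tdgf1 at 315 CPM, so the pseudogene met the rule in one of the authors' tables and not in the other.

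Enzymes, kinases and transporters were the largest role group together with the transcription factors, with 11 genes and 1195 CPM on D2. Pim2, a serine/threonine kinase that promotes growth and survival (chr X, 7878262 to 7883432, plus strand), was at 388 and 374 CPM on D2, 16.1 and 18.5 on D3, 10.5 and 10.6 on D6, 8.41 and 8.94 on D7 and 8.80 and 10.0 in D7G. Its D2 mean was 22.0 times its highest later mean. Slc7a3, a carrier of cationic amino acids, behaved differently after D3: it was at 437 and 426 CPM on D2, 82.8 and 78.0 on D3, 77.4 and 77.1 on D6, 83.0 and 83.3 on D7 and 59.5 and 60.0 in D7G, so D3, D6 and D7 lay within a narrow band.

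The 2 ectonucleotidase genes of the set had different courses. Enpp3 was at 151 and 152 CPM on D2, 12.9 and 11.9 on D3, 8.62 and 10.3 on D6, 11.9 and 11.7 on D7 and 18.1 and 16.2 in D7G. Enpp2 (autotaxin, the secreted enzyme that makes lysophosphatidic acid) was at 53.1 and 55.4 CPM on D2 and had its lowest values on D3, at 1.62 and 1.21. It then read 2.69 and 2.45 CPM on D6, 4.67 and 4.88 on D7 and 9.24 and 9.22 in D7G, and no 2 of these 4 groups overlapped. Slc27a2, which takes up and activates long fatty acids, was at 97.9 and 92.6 CPM on D2, 11.7 and 12.8 on D3 and between 2.33 and 3.79 later. Mmp25, a membrane-anchored matrix metalloproteinase, was at 36.3 and 35.8 CPM on D2, 5.61 and 5.54 on D3 and between 0.334 and 0.716 later. Pde1b, a calmodulin-dependent phosphodiesterase, was at 23.3 and 22.7 CPM on D2, 3.20 and 3.09 on D3, 3.48 and 3.09 on D6, 5.48 and 5.61 on D7 and 5.58 and 5.26 in D7G. Pla2g10 (a secreted phospholipase), Fut1 (a fucosyltransferase) and the diacylglycerol kinases Dgkb and Dgki had D2 means of 8.14, 6.76, 3.87 and 3.16 CPM.

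**Figure D3:**
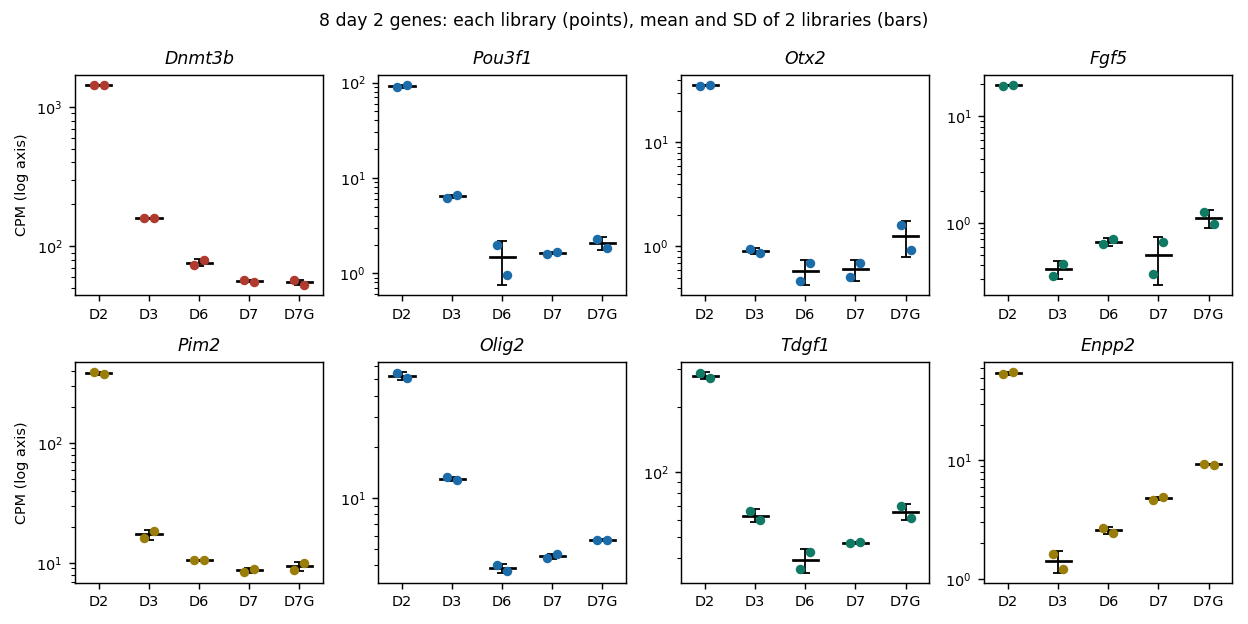
CPM on a log axis for 8 of the day 2 genes, with 1 point per library and bars for the mean and SD of the 2 libraries in each group. Enpp2 has its lowest value on D3 (1.41 CPM) and its highest later value in D7G (9.23 CPM), while Dnmt3b goes from 1442 CPM on D2 to 161 CPM on D3.

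A further 10 genes encode proteins best known from neurons or muscle, with 88.8 CPM in all on D2. Jph4, a junctophilin that ties the cell membrane to calcium stores in neurons, supplied 41.2 CPM of this and was at 41.8 and 40.6 CPM on D2, 7.90 and 8.92 on D3, 2.38 and 2.90 on D6, 2.57 and 2.40 on D7 and 1.10 and 0.965 in D7G. Atcay, Unc45b (a chaperone of muscle myosin) and Cend1 had D2 means of 9.89, 8.73 and 6.71 CPM. The remaining 6 (Clvs2, Mt3, Myh3, Sncb, Grin2b and Fgf14) lay between 3.10 and 4.77 CPM on D2. A separate list of 10 neuron genes, none of them in the set, summed to 272 to 277 CPM on D2, 188 to 193 on D3 and 317 to 318 in D7G; its part in these values was not tested.

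Matrix, cytoskeletal and other genes numbered 8. Pdzd4, a PDZ-domain protein encoded on the X, was at 215 and 213 CPM on D2, 44.5 and 44.9 on D3 and between 18.1 and 23.5 in the 6 later libraries. Ankrd35 and Tmem54 had D2 means of 22.5 and 10.3 CPM, and Acan (aggrecan), Derl3, Col6a5 and Tmem154 lay between 3.93 and 9.36 CPM. Tmem54 shares 57 nt of exon with Hpca on the opposite strand and Shisa3 shares 138 nt with Atp8a1, which stood at 20.8 CPM on D2 against 3.77 for Shisa3. C1qtnf1 shares 642 nt (20.5% of its exons) with the antisense gene Gm11747, which lay between 0.0322 and 0.175 CPM in the 5 group means. Whether the counting used strand is not given in the sources used here, and reads from such shared bases cannot then be told apart.

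The set has soft edges. Just inside the 4-fold limit were Olig2 (4.04), Pde1b (4.16), Olig1 (4.22), Unc45b (4.23) and Tdgf1 (4.25), and just outside were Pld4 and Utf1 (3.99 each), Rbm44 (3.96), Aass (3.91) and Fam57b (3.85). Utf1, a chromatin factor of pluripotent cells, missed by this margin with 187 CPM on D2 and 46.8 CPM on D3. Just inside the limit of 3 CPM were Fgf14 (3.10), Grin2b (3.11), Dgki (3.16), Etv2 (3.19) and Sncb (3.43), and just outside were Myh6 (2.95), Pcnx2 (2.92), Pdyn (2.58), Cass4 (2.31) and Cdh9 (2.25). Of the 50 genes, 4 are on the X (8.00%), namely Slc7a3, Pim2, Pdzd4 and Foxr2, against 400 of 11505 kept genes at 3 CPM or more on D2 (3.48%).

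What the selection left free was the course among the later groups, since it only capped each of them at 25% of the D2 level. The 3 steps (D6 against D3, D7 against D6 and D7G against D7) were tested with edgeR's quasi-likelihood test over 18818 genes with Benjamini-Hochberg adjustment, with 0.05 as the limit on the adjusted p for a call. Consecutive steps share the D6 or the D7 libraries, so they are not independent of each other. All 50 genes passed the filter on low counts, which many could pass through their D2 libraries, and 32, 20 and 25 of them reached a mean of 1 CPM in either group of the 3 steps in turn.

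From D3 to D6, 34 of the 50 genes fell further and 2 rose, and 14 were not called. Of these calls, 27 falls and 1 rise were of genes at 1 CPM or more in either group. Among all genes tested 33.3% were called lower and 32.4% higher (65.7% in either direction). The median log2 fold change was -1.13 for the 50 genes and -0.01 for all genes. The largest falls among genes at 1 CPM or more in a group were Tmem54 (log2 fold change -3.61 ± 0.34 SE, adjusted p = 1.26e-08), Mmp25 (-3.13 ± 0.19, adjusted p = 9.37e-12), Unc45b (-2.69 ± 0.27) and Wt1 (-2.64 ± 0.19). C1qtnf1 (-2.31 ± 0.38), Clvs2 (-2.05 ± 0.42), Fut1 (-2.05 ± 0.29) and Pou3f1 (-2.04 ± 0.18, adjusted p = 5.86e-09) came next. These 8 span 5 of the 6 role groups.

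By role, 7 of 11 transcription factors fell on this step with a median of -1.42, 7 of 8 matrix, cytoskeletal and other genes with a median of -1.40, and 6 of 10 neuronal or muscle genes with a median of -1.21. Among the 11 enzymes and transporters 7 fell and 1 rose, and among the 7 secreted factors 5 fell and 1 rose. These falls include genes under 1 CPM in both groups. They are Mt3 and Sncb (neuronal or muscle), Col6a5 and Tmem154 (matrix, cytoskeletal and other), Tnfsf11 and Rln3 (secreted) and Dgkb (enzymes). The calls of Tnfsf11, Mt3, Sncb and Dgkb were lost under some of the alternatives run. Dnmt3b fell by 1.00 ± 0.04 on the log2 scale (adjusted p = 3.24e-14). The fall of Dnmt3c, by 0.86 ± 0.16 (adjusted p = 7.25e-05), was not called in the second count table (-0.51, adjusted p = 0.104).

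The 2 genes that rose from D3 to D6 were Enpp2, by 0.94 ± 0.17 on the log2 scale (adjusted p = 7.82e-05), and Fgf5, by 0.93 ± 0.37 (adjusted p = 0.0320). Fgf5 was under 1 CPM in both groups and lost its call without D3 replicate 1 (0.75, adjusted p = 0.160), D6 replicate 1 (1.00, adjusted p = 0.0594) or D6 replicate 2 (0.86, adjusted p = 0.108). A list of 10 embryo fibroblast genes, picked to look for feeder cells, moved on this step too, with 8 of 10 called lower and 2 higher. Its median log2 fold change of -2.47 is further below 0 than the median of the 50 genes. Dcn (-4.78 ± 0.29), Thy1 (-4.32 ± 0.20), Col1a2 (-4.32 ± 0.10) and Col1a1 (-3.58 ± 0.10) fell, while Col3a1 rose from 28.4 to 169.5 CPM and Pdgfrb from 15.7 to 28.6 CPM. The list's sum, 436 to 444 CPM on D3 and 295 to 309 CPM on D6, is therefore carried by different genes on the 2 days. Whether the RNA of these genes came from feeder cells, and the part of such cells in the falls, was not tested.

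**Figure D4:**
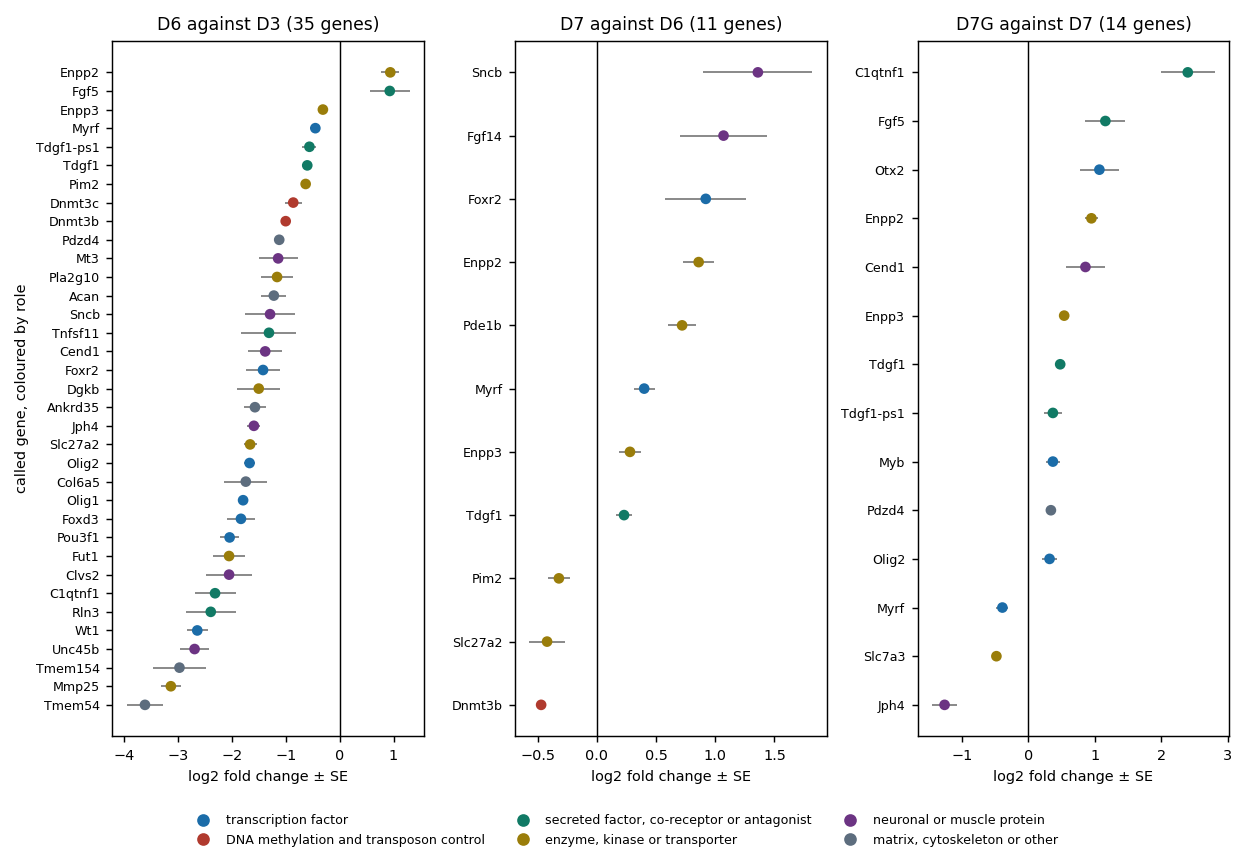
Log2 fold change with its SE for the day 2 genes called in each of the 3 steps, with 1 gene left out, coloured by role. From D3 to D6 33 of the 35 genes shown lie below 0, from D6 to D7 8 of 11 lie above 0, and from D7 to D7G 11 of 14 lie above 0.

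From D6 to D7 most of the set was not called: 8 genes rose, 4 fell and 38 missed the threshold. Among all genes 20.5% were called higher and 15.6% lower (36.0% in either direction), and the medians were 0.05 for the 50 genes and 0.04 for all genes. Enpp2 rose again, by 0.86 ± 0.13 on the log2 scale (adjusted p = 4.49e-05), and Pde1b rose by 0.72 ± 0.12 (adjusted p = 0.000114). Myrf rose by 0.40 ± 0.09 (adjusted p = 0.00155), a call lost without D7 replicate 2 (0.29, adjusted p = 0.0543). The smaller rises of Enpp3 (0.28 ± 0.09) and Tdgf1 (0.23 ± 0.07) did not hold with any of 3 libraries left out: Tdgf1 went to 0.11 without D6 replicate 1 (adjusted p = 0.274), 0.19 without D7 replicate 1 (adjusted p = 0.118) and 0.20 without D7 replicate 2 (adjusted p = 0.123), and Enpp3 to adjusted p = 0.248, 0.137 and 0.0835 in the same order. The other 3 calls, Foxr2, Sncb and Fgf14, were of genes under 1 CPM in both groups.

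Among the 4 genes that fell from D6 to D7 were Dnmt3b, by 0.47 ± 0.04 on the log2 scale (adjusted p = 9.76e-08), Pim2, by 0.32 ± 0.09 (adjusted p = 0.00840), and Slc27a2, by 0.42 ± 0.15. Slc27a2 (adjusted p = 0.0390) lost its call with D6 replicate 1, D6 replicate 2 or D7 replicate 1 left out, at adjusted p = 0.0851, 0.137 and 0.309, and under other settings too. Left out one at a time, these libraries changed the count of genes that rose to 4 (D6 replicate 1), 3 (D7 replicate 1) or 3 (D7 replicate 2), and the count that fell was 2 without D6 replicate 2.

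Gdf11 was the question of the last step. With 24 h of Gdf11, 11 of the 50 genes were higher than in untreated D7 cells, 3 were lower and 36 were not called. Among all genes 22.5% were called higher and 18.2% lower (40.7% in either direction), so the share of all 50 day 2 genes called higher, 22.0%, was near the background. Of the 25 day 2 genes at 1 CPM or more in either group, 10 were higher and 3 lower. The share of all genes at that level is not given here. The median log2 fold change was 0.26 for the 50 genes and 0.02 for all genes. Without D7 replicate 1 the number called higher was 6.

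The genes that rose with Gdf11 included secreted and signalling proteins. C1qtnf1 rose by 2.40 ± 0.41 on the log2 scale (adjusted p = 8.16e-05), Enpp2 by 0.95 ± 0.10 (adjusted p = 3.17e-07), Enpp3 by 0.54 ± 0.08 (adjusted p = 1.75e-05) and Tdgf1 by 0.48 ± 0.07 (adjusted p = 8.82e-06). Pdzd4 rose by 0.34 ± 0.06 (adjusted p = 0.000127). Fgf5 (1.16 ± 0.30, adjusted p = 0.00407) and Otx2 (1.07 ± 0.29, adjusted p = 0.00547) were at 0.498 and 0.603 CPM on D7 and at 1.11 and 1.27 CPM in D7G. Both calls were lost with D7 replicate 1 or D7G replicate 1 left out. Fgf5 went to 0.72 without D7 replicate 1 (adjusted p = 0.0904) and 0.93 without D7G replicate 1 (adjusted p = 0.0548), and Otx2 to 0.85 (adjusted p = 0.0729) and 0.61 (adjusted p = 0.178). Myb rose by 0.37 ± 0.10 (adjusted p = 0.00759), with the call lost without D7 replicate 1 (0.28, adjusted p = 0.0995) or D7G replicate 2 (0.30, adjusted p = 0.0726). Olig2, Cend1 and Tdgf1-ps1 were called with adjusted p = 0.0251, 0.0264 and 0.0291 and lost the call under 8 of 20, 4 of 20 and 6 of 19 alternatives.

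Jph4 fell with Gdf11 by 1.26 ± 0.19 on the log2 scale (adjusted p = 2.29e-05), Slc7a3 by 0.48 ± 0.04 (adjusted p = 1.67e-08) and Myrf by 0.39 ± 0.09 (adjusted p = 0.00119). All 3 were called under each of the 20 alternatives run. Dnmt3b (-0.04 ± 0.04, adjusted p = 0.561) and Pou3f1 (0.35 ± 0.23, adjusted p = 0.242) were not called.

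Most genes of the embryo fibroblast list, picked to look for feeder cells, rose on the same step. The 10 genes summed to 422 to 438 CPM in the D7 libraries and 1165 to 1328 CPM in D7G, with 8 of 10 called higher, 2 not called and none at 0. Col1a1, the fibrillar collagen, was at 27.4 CPM on D7 and 242 CPM in D7G (log2 fold change 3.14 ± 0.08, adjusted p = 3.35e-16), and Lum, a collagen-binding proteoglycan, at 1.13 and 15.2 CPM (3.75 ± 0.21). Col3a1 alone went from 262 to 661 CPM. Dcn and Fbln2 hardly moved, at 0.525 and 45.2 CPM on D7 and 0.674 and 44.4 CPM in D7G. On D2 the list summed to 223 to 273 CPM, against 436 to 444 CPM on D3, but its genes did not share 1 course: Thy1, a fibroblast surface protein, was at 8.99 CPM on D2, 8.06 on D3 and between 0.379 and 1.11 in the D6, D7 and D7G means, and Dcn, Col1a1 and Col1a2 were at 4.33, 52.2 and 58.6 CPM on D2 and at 0.283, 8.01 and 5.27 CPM on D6. Its part in the day 2 levels, and in the rises of C1qtnf1, Enpp2 and the others was not tested.

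Pathway lists put the set beside its neighbours in function. They were drawn up with earlier results of these data known, and across all genes 28.9% were called lower and 29.6% higher from D2 to D3 (58.5% in either direction). In the primed epiblast list all 10 genes were lower on D3, with a median log2 fold change of -2.02 against 0.00 for all genes; 4 of them (Dnmt3b, Fgf5, Otx2 and Pou3f1) belong to the day 2 set, where that direction was selected. Among the 6 others, Sox3 fell by 2.10 ± 0.10 on the log2 scale, Zic5 by 1.94 ± 0.06, Dnmt3a by 1.81 ± 0.04 and Zic2 by 1.63 ± 0.06, with adjusted p of at most 2.51e-13. The list as a whole did not stay low together, and this began before Gdf11. From D3 to D6 6 of its 10 genes rose (Fgf5, Zic2, Zic5, Sox3, Sall2 and Tead2) and 3 fell. Among all genes 32.4% were called higher and 33.3% lower on that step. With Gdf11 5 of the 10 rose (Fgf5, Otx2, Dnmt3a, Zic2 and Zic5) and 2 fell (Sox3 and Sall2), against 22.5% and 18.2% of all genes. The number that rose was 3 without D7 replicate 1 or D7G replicate 1.

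Of 12 genes shared by naive and primed pluripotent cells, 11 were lower on D3 and 1, Sox2, was not called. Tdgf1 and Foxd3 of this list are in the day 2 set. Utf1 fell by 2.08 ± 0.05 on the log2 scale, L1td1 by 1.99 ± 0.07 and Pou5f1 by 1.15 ± 0.06. With Gdf11 10 of the 12 rose, among them Tdgf1 (0.48 ± 0.07), Nodal (0.59 ± 0.08) and the Nodal antagonist and target Lefty1 (1.05 ± 0.08, adjusted p = 1.67e-09), and Sox2 fell by 0.27 ± 0.04.

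Naive pluripotency genes went the other way from D2 to D3, with 11 of 14 higher, 1 lower and 2 not called. Tfcp2l1 rose by 1.98 ± 0.08 on the log2 scale, Tbx3 by 1.63 ± 0.08 and Klf4 by 1.19 ± 0.08, all transcription factors of the naive network, while Fgf4 fell by 1.24 ± 0.07. None of the 14 is in the day 2 set. Markers of some other cell types rose on the same step. All 6 of 6 tested trophoblast genes were called higher, with a median log2 fold change of 0.82 and a summed level of 33.4 to 33.9 CPM on D2 and 57.3 to 59.5 on D3. So were 5 of 9 extraembryonic endoderm genes with none lower (median 0.88, 129 to 135 and 174 to 189.6 CPM) and 8 of 10 genes of the embryo fibroblast list. Other lists went differently. Of 10 neuron genes 7 were called lower and 2 higher, and of 12 tested germ-line genes 9 were lower and 1 higher. Of 7 tested 2-cell-like genes 4 were lower and 0 higher, and of 12 tested anterior neuroectoderm genes 4 were higher and 2 lower. The part of any of these cell types in the list counts was not tested. With Gdf11 13 of the 14 rose, by at most 0.55 on the log2 scale (Tbx3), and 8 did so without D7G replicate 1.

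Next to the 50 genes on their chromosomes lie 95 protein-coding genes that do not meet the rule, of which 70 were tested from D2 to D3. These neighbours were called lower in 29 cases (41.4%, against 28.9% of all genes) and higher in 21 (30.0%). A fall of at least 2-fold was called for 10 (14.3%), against 5.51% of all genes. The closest was Ppp1r1a, which encodes a protein phosphatase 1 inhibitor and lies 226 nt from Pde1b: it went from 21.3 CPM to 4.07 CPM (-2.47 ± 0.12, adjusted p = 3.87e-13). Tex11 beside Slc7a3 (log2 fold change -1.79 ± 0.13), Izumo1 beside Fut1 (-1.51 ± 0.21) and Lrrc2 beside Tdgf1 (-1.09 ± 0.22) fell as well.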

How the data were processed

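RNA from 10 libraries (5 groups of 2) was sequenced. The submitters' processing notes name STAR, HISAT2 2.1.0, featureCounts 1.6.3, limma and build mm10, with roles and strand use not given in the sources used here. The authors deposited whole-number read counts per gene (52459 genes, used throughout), a second count table by Ensembl gene (55298, of which 98.39% matched a symbol), and a table of 14983 genes with CPM values, log2 fold changes against D2 and FDR values made by the authors. In the authors' deposited table the FDR, an adjusted p-value of a test over the 5 groups, was at most 4.72e-07 for the 50 genes. That test includes D2, and the genes were chosen from the same counts for being high on D2. A low value was therefore fixed by the selection and is no separate evidence.

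CPM is a count divided by its library's total. Counts were fitted with edgeR 4.0.16 in R 4.3.3 (TMM factors, filterByExpr, 18818 genes, 5 groups, 1 quasi-likelihood fit), with a 3.34% coefficient of variation between libraries. SE of a log2 fold change is its size over the square root of F. The fit was also run on simulated counts for D7G against D7, and the outcome is not given here. The members, role groups and lists were chosen with earlier results of these data known. Tests name up to 8 called, non-overlapping members per direction at 1 CPM or more, by size; list genes were named up to 4 per list, and a few others, named after their values were seen. Deviations of same-numbered libraries were only weakly correlated. Alternatives were library totals, other filters, DESeq2 1.42.0, limma-voom (limma 3.58.1), the second table, a replicate block, single comparisons and leaving out each library. Start-site windows are from RefSeq. Depth was 31078950 to 33418015 counts a library. 1 member counted in the totals is not reported by name here.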

Additional observations from a re-analysis of the deposited data

How the results depend on the processing

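The number of genes meeting the day 2 rule was 50; it was 104 with a 3-fold limit, 17 with 8-fold, 78 with D2 at 1 CPM or more and 25 with D2 at 10 CPM or more, and 49 to 54 with 1 library left out. From D3 to D6 the count called lower was 31 to 35 and the count called higher 1 to 2 with 1 library left out. From D6 to D7 the count called higher was 5 with no filter and 5 by DESeq2, and 3 to 8 with 1 library left out, and the count called lower 2 to 5. From D7 to D7G the count called higher was 6 to 11 and lower 3 throughout. The cause was not tested. No result reversed its direction. From D2 to D3, 1 shared pluripotency gene was called higher by library totals, in the fit of only the 2 groups compared, and 0 to 1 with 1 library left out; the neuron list had 1 to 2 called higher, and the feeder list 1 called lower in the fit of only the 2 groups; the trophoblast list had 3 to 6 called higher with 1 library left out, and the extraembryonic endoderm list 1 called lower with no filter. These list and neighbour alternatives were chosen after seeing the data. With a replicate block the counts were 34 and 2, 4 and 8, and 3 and 11 called lower and higher in the 3 steps. No call count changed. Deviations of same-numbered libraries correlated at 0.007, 0.047 and 0.049. Such a correlation over all genes cannot settle whether the numbers pair the samples. With 2 libraries a group, changes near 1 CPM or of about 0.3 on the log2 scale are the least certain.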

Other observations

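Germ-line genes, a list of 13 of which none is in the day 2 set, were also high on D2. They summed to 139 CPM in both D2 libraries and 72.7 to 74.2 CPM on D3, with 9 of 12 tested genes called lower and 1 higher from D2 to D3 by edgeR's quasi-likelihood test. Of 7 tested genes of the 2-cell-like state, 4 were lower on D3 and 3 were not called. Across all genes 28.9% were called lower and 29.6% higher from D2 to D3, and 18.2% lower and 22.5% higher with Gdf11. With Gdf11 8 of the 12 germ-line genes rose, 5 with no filter and 4 by DESeq2, and 4 without D7 replicate 1, 5 without D7 replicate 2 and 5 without D7G replicate 1.

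The 3 unnamed gene models that met the rule were Gm2762 (10.4 CPM on D2, 0.890 on D3), C430049E01Rik (13.0 and 3.24 CPM) and Gm32585 (3.10 and 0.651 CPM), all under 0.4 CPM on D6, D7 and D7G.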
